A study of Mus musculus with 6 samples.

Results

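The histone genes measured here were all probe sets of the Affymetrix Mouse Genome array whose annotation gives exactly 1 gene symbol and whose symbol begins with the stem of a histone gene (H1f, H2a, H2b, H3c, H3f, H4c, H4f or the older Hist names). This choice, made on names alone, gave 36 probe sets among the 45101 of the array, for 25 of the 18193 genes that have a probe set with 1 symbol. The 48 hpi group was tracheal epithelium from C57Bl/6 mice taken 48 h after the animals breathed 500 ppm SO2 for 4 h, a gas that kills the luminal cells and leaves basal cells to rebuild the layer, and the control group was epithelium from uninjured tracheas of the same strain. Each group held 3 arrays, and each array 1 pool of 4 tracheas, so that values of single animals cannot be separated. The study's methods give male mice of 8 to 12 weeks for SO2 exposure. Epithelium of both groups was peeled off after Dispase, dissociated in trypsin and depleted of CD45+ leukocytes with magnetic beads, and no cell type was purified beyond that. The comparison asks which histone mRNAs differ between the epithelium under repair and the epithelium at rest.

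Histones package DNA. The replication-dependent genes for H1, H2A, H2B, H3 and H4 lie in clusters, are transcribed mainly in S phase, and make most of the histone that newly copied DNA needs. Their mRNAs are the known exception among animal mRNAs in that they end in a stem-loop and not in a poly(A) tail, although some cluster genes also make polyadenylated forms, above all in cells that have left the cycle. Replacement variants such as H3.3, H2A.Z and H2A.X are encoded by single genes outside the clusters, most with introns and polyadenylated mRNAs, and are made through the cell cycle. The RNA on these arrays was amplified with a kit that primes with oligo(dT), so the stem-loop mRNAs were not expected to be copied in proportion to their number. A replication-dependent probe set would then report mainly polyadenylated or internally primed transcripts, which was not examined here. What share of the stem-loop mRNA reached the array was not tested.

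Of the 25 genes, 10 were replication-dependent cluster genes with 15 probe sets, 7 were replacement or other single-gene variants with 11 probe sets, 6 were genes known from testis or oocyte with 7 probe sets, and 2 were further X-linked H2A genes (H2al3 and H2ap) with 3 probe sets. The cluster genes lay on chromosome 13 (6 genes), chromosome 3 (3 genes) and chromosome 11 (1 gene). There were 9 genes with more than 1 probe set and 16 with a single one. Because cluster genes are near copies of each other, most of them share their probe sets. A further 27 probe sets carry several symbols, at least 1 of them of a histone gene. They name no single gene, stand outside the set and are described separately below.

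The promoters of 4 genes are shown because they pair a cluster gene that fell with one whose change was small, and a variant that rose with its closest relative that was not called. RefSeq (GRCm38.p6) gave a window from 250 bases before to 50 bases after the start for 22 of the 25 genes. Capitals mark CCAAT, the box bound by the NF-Y complex, read on either strand (ATTGG on the other).
H2ac19, chr3:96240325-96240624, minus strand: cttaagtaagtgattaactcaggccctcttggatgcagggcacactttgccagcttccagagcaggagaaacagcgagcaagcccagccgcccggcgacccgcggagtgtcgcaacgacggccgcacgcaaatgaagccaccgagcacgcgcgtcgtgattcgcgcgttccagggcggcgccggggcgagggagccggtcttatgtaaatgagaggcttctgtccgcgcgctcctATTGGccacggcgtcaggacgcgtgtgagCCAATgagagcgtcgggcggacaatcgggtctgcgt
H1f2, chr13:23738557-23738856, plus strand: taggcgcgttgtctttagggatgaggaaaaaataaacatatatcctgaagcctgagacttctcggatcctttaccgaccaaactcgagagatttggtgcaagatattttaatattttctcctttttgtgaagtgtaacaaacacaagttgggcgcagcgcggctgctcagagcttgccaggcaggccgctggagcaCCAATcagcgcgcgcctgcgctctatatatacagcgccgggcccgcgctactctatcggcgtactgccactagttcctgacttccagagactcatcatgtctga
H2az1, chr3:137864237-137864536, plus strand: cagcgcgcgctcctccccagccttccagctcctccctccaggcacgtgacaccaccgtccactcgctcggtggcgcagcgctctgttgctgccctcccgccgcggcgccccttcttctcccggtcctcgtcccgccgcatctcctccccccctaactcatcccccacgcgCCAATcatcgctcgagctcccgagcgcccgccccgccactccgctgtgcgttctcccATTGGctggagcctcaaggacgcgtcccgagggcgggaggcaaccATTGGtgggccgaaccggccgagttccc
H2az2, chr11:6444394-6444693, minus strand: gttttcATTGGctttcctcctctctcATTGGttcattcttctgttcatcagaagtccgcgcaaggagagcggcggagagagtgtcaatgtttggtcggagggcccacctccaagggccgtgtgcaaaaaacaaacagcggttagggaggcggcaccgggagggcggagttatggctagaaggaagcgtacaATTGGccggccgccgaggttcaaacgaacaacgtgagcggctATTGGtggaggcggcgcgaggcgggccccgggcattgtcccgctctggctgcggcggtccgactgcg
CCAAT was found in all 8 replication-dependent windows and in 5 of 6 windows of replacement variants, against 37.4% of the 32851 promoter windows of the same length. TATAAA, the site of the factor TBP, was found in 4 of 8 and in 1 of 6, against 13.6% of all. The octamer ATTTGCAT, known from H2B promoters, was found in 2 of 8 and in 1 of 6, against 1.74% of all, and any of the E2F-type sites TTTCCCGC, TTTGGCGC or TTTCGCGC in 1 of 8 and in none of 6, against 1.84% of all. All motifs were read on both strands. H2az1, which was higher at 48 hpi, held 3 CCAAT matches and H2az2, which was not called, held 4. H2ac19, which was lower, held 2 and H1f2 held 1. These matches describe the windows only.

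Expression is given as the log2 RMA value of each array. The medians of the 6 arrays lay between 4.88 and 4.99, and the third 48 hpi array correlated with the other arrays of its group at 0.990 and 0.992, against 0.996 between those 2 arrays and 0.992 to 0.996 between the controls. A probe set was taken as above background where its group mean exceeded the 95th percentile of 79 probe sets for odorant, vomeronasal and trace amine receptors, which was 4.81 at 48 hpi and 4.94 in controls. By that mark 21 of the 36 histone probe sets were above background in at least 1 group. The epithelial markers were all above background (10 of 10), with 4 higher at 48 hpi and 1 lower. Their mean level per array was 11.18 to 11.22 at 48 hpi and 10.72 to 10.86 in controls. Ciliated cell markers were lower for 8 of 10 genes (mean level 4.70 to 5.32 at 48 hpi, 5.62 to 6.51 in controls), Foxj1 not among them, and secretory cell markers for 5 of 8 (12.11 to 13.18 at 48 hpi, 13.76 to 13.83 in controls), and in the methods' t-test with adjustment 2 of the 10 and 0 of the 8 were called (5 and 4 at an unadjusted p below 0.05). Of 13 leukocyte markers 4 were above background and Ptprc, which encodes CD45, was not (mean level 4.17 to 4.26 at 48 hpi, 4.21 to 4.31 in controls, with Csf1r alone lower). Above background were also 3 of 8 fibroblast markers, 1 of 7 endothelial and 3 of 7 cartilage markers, among which only Dcn (-1.85) and Chad (-2.68) were called. The ciliated and secretory markers moved with the groups, and in bulk RNA fewer cells of a type cannot be told apart from less RNA per cell. Their part in the histone values was not tested.

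Across the histone probe sets the changes went both ways. At an adjusted p below 0.05 in a limma fit over all 45037 probe sets tested, 5 of 36 were higher at 48 hpi and 7 lower, against a background of 14.5% called higher and 13.9% lower (28.4% in either direction) over the whole array. The groups did not overlap for 6 probe sets that were higher and 10 that were lower, against 21.0% and 22.4% of all probe sets. The median change was -0.03 over the 36 probe sets and -0.03 over all probe sets. The counts of the whole set therefore lay near the background. With the arrays scaled to equal hybridization controls, which moves the median change of all probe sets to 0.32, 6 were higher and 5 lower. The plot of all changes by class shows the 36 values.

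**Figure D1:**
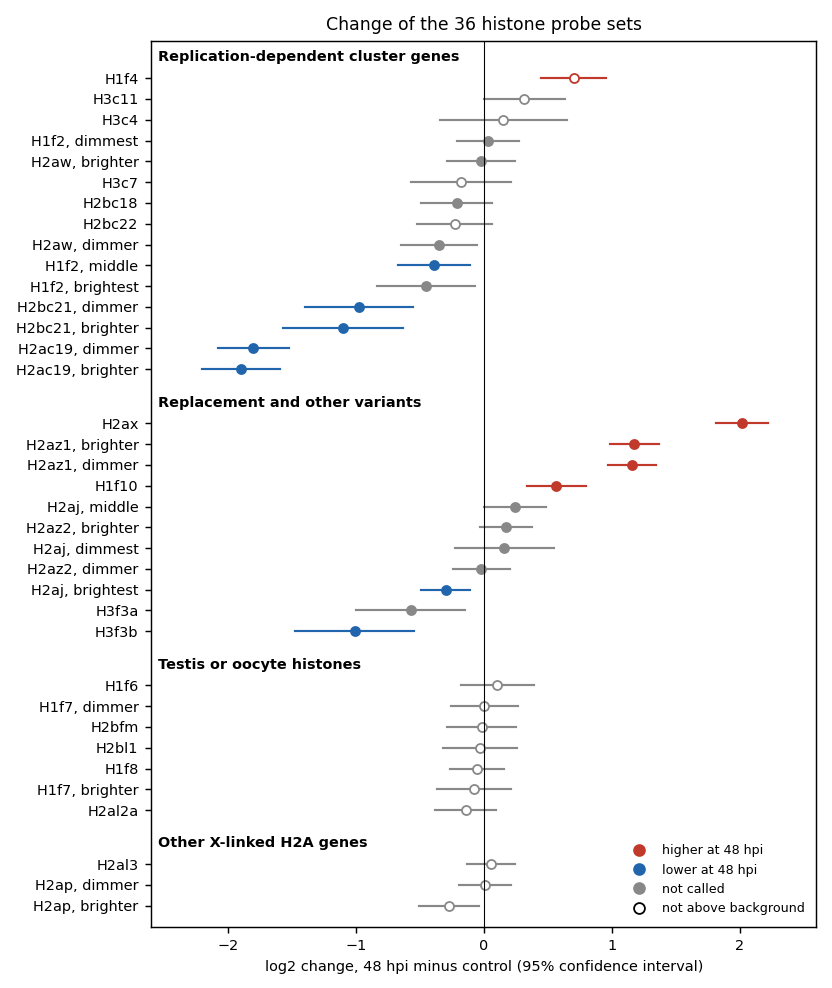
Change of each of the 36 histone probe sets (48 hpi minus control, log2, x axis) with its 95% confidence interval from limma, grouped by class. Red points were higher at 48 hpi, blue points lower, grey points not called, and open points were not above background in either group. The changes run from -1.90 for H2ac19 to 2.02 for H2ax, and the testis, oocyte and further X-linked genes lie near 0.

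Among the replacement variants, H2ax was the gene with the largest change. H2ax encodes H2A.X, whose phosphorylated form marks DNA double-strand breaks, and its gene (chromosome 9, 44334715 to 44336077, GRCm38.p6) is unusual in making both a stem-loop and a polyadenylated mRNA. The 48 hpi pools had log2 values of 10.03, 9.91 and 10.05, and the control pools 8.02, 7.91 and 7.998. All 48 hpi pools were above all controls, with a spread in each group far smaller than the gap. The change was 2.02 ± 0.09 (SE, n = 3 against 3), or 4.05-fold with a 95% confidence interval of 3.53 to 4.66 (limma adjusted p = 7.3e-06).

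H2az1 also rose. It encodes H2A.Z, the variant found at promoters on both sides of the transcription start. Its brighter probe set read 12.54, 12.51 and 12.54 in the 48 hpi pools, against 11.40, 11.38 and 11.28 in the control pools, a change of 1.18 ± 0.08 (SE) and 2.26-fold (limma adjusted p = 7.5e-05). The groups stood apart, and the other probe set of the gene gave nearly the same change, 1.16 ± 0.08 (limma adjusted p = 7.3e-05).

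The closest relative of H2az1 did not move in step. H2az2 encodes H2A.Z.2, whose protein differs from H2A.Z.1 by only a few residues. Its brighter probe set read 10.89, 10.86 and 10.72 at 48 hpi, against 10.61, 10.68 and 10.65 in controls. The 48 hpi values were all higher, but the change of 0.17 ± 0.09 (SE) was not called (limma adjusted p = 0.19), with a 95% confidence interval of -0.03 to 0.37. The dimmer probe set changed by -0.02. Within each array H2az1 exceeded H2az2 by 1.65, 1.65 and 1.82 at 48 hpi and by 0.79, 0.70 and 0.63 in controls, so that the changes of the genes differed by 1.00. All 48 hpi pools lay above all controls in this contrast (exact two-sided permutation p = 0.1, the smallest that 3 pools against 3 allow).

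The linker histone variant H1f10 (H1.10, also known as H1x) rose by less. Its values were 6.74, 6.70 and 6.70 in the 48 hpi pools and 6.26, 5.98 and 6.21 in the control pools. The groups did not overlap, and the change was 0.57 ± 0.10 (SE), or 1.48-fold (limma adjusted p = 0.0041).

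H2aj, an H2A variant gene that has been linked to senescent cells in work on human fibroblasts, gave mixed readings. Its brightest probe set read 9.81, 9.85 and 9.74 at 48 hpi, against 10.10, 10.12 and 10.07 in controls, a change of -0.30 ± 0.08 (SE, limma adjusted p = 0.028). All 48 hpi pools were lower, yet the remaining probe sets of the gene changed by 0.16 and 0.24 and were not called. The direction also turned with the arrays scaled to equal hybridization controls (0.04) and with the mean over the probe sets of the gene (0.03).

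Neither H3.3 gene was called higher. H3f3a and H3f3b encode the same protein, which is deposited outside replication. The single-gene probe set of H3f3b read 5.75, 6.02 and 6.43 at 48 hpi, against 6.90, 6.91 and 7.43 in controls. The groups did not overlap and the change was -1.01 ± 0.20 (SE, limma adjusted p = 0.0071), so that controls were 2.01-fold higher. That of H3f3a read 6.37, 6.43 and 7.02 at 48 hpi, against 6.999, 7.15 and 7.39 in controls, with 1 overlapping pool in each group. Its change of -0.57 ± 0.18 (SE) was not called (limma adjusted p = 0.052).

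H3.3 is measured much more fully by 5 probe sets that carry H3f3a, H3f3b and 4 further symbols. Their changes were small, from -0.31 to -0.05, and 1 was called lower (12.75, 12.79 and 12.63 at 48 hpi, against 13.00, 13.02 and 13.06 in controls, limma adjusted p = 0.031). That call rests on a change of -0.31 and turned to 0.04 with equal hybridization controls. Thus the fall of the H3f3b probe set was not matched in size by the probe sets that read both genes together. Which transcript of H3f3b the single-gene probe set reads was not tested.

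Over the 11 probe sets of replacement variants, 4 were higher (36.4%) and 2 lower (18.2%), against 14.5% and 13.9% of all probe sets, the median change was 0.17, and all were above background. The shares of all probe sets include dim ones. In a fit of the 24086 probe sets above background alone, 6493 were higher and 5738 lower, larger shares than over all probe sets. H2az1 gave 2 of the 4 higher calls. By the brightest probe set of each gene, 3 of 7 replacement genes were higher and 2 lower, against 18.4% and 16.1% of all genes. With H2al3 and H2ap counted in the class, 4 of 14 were higher (28.6%) and 2 lower (14.3%). The values of the single pools are shown in the plot of RMA expression by array.

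**Figure D2:**
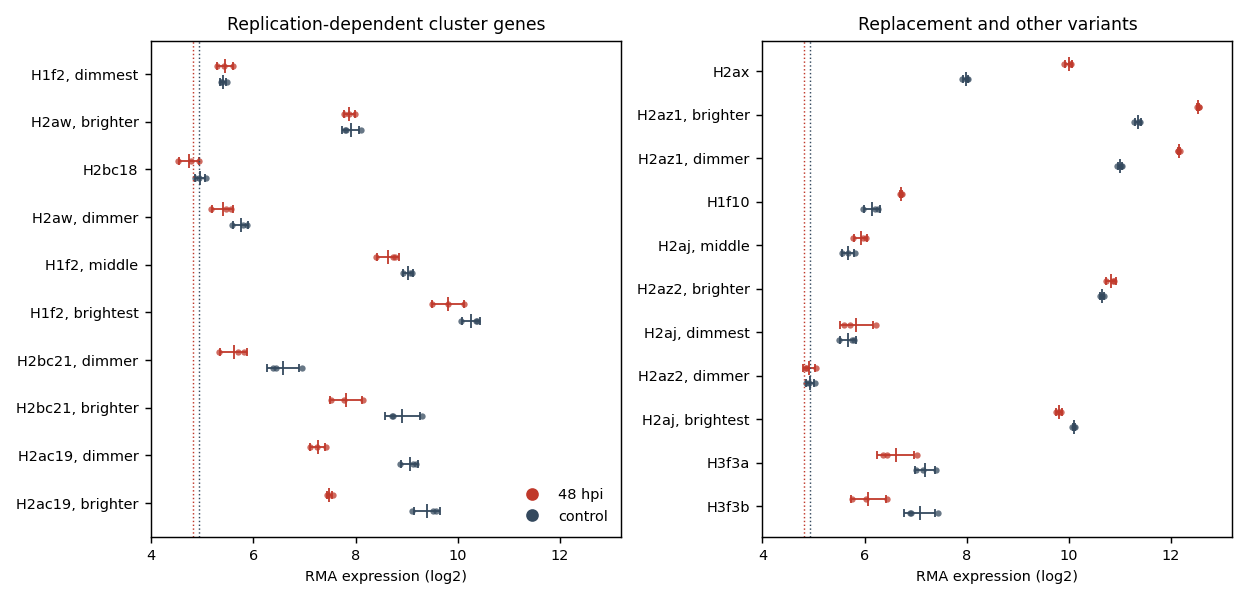
RMA expression (log2, x axis) of each pool for the histone probe sets above background, cluster genes on the left and replacement or other variants on the right. Red marks 48 hpi and dark blue control, points are single pools, crosses with bars are the mean ± SD of 3 pools, and dotted lines are the background level of each group. H2ax and H2az1 are clearly higher at 48 hpi, and H2ac19 and H2bc21 clearly lower, with no overlap between the groups.

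Of the 15 probe sets of single replication-dependent genes, 5 were lower (33.3%), 1 was higher (6.67%), and 9 were not called, against 13.9% lower and 14.5% higher over all probe sets. Their median change was -0.23, and 10 were above background. On chromosome 3 (H2ac19, H2bc18 and H2bc21) 4 of 5 probe sets were lower, on chromosome 13 1 of 8 was lower and 1 higher, and on chromosome 11 (H2aw, 2 probe sets) none was called.

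H2ac19 showed the largest fall of any histone probe set. It encodes a canonical H2A in the small cluster on chromosome 3 (96239779 to 96240374, GRCm38.p6). The brighter probe set read 7.48, 7.55 and 7.44 in the 48 hpi pools and 9.10, 9.51 and 9.57 in the control pools. The 48 hpi values were tight and far below every control. The change was -1.90 ± 0.13 (SE, limma adjusted p = 6.9e-05), with controls 3.74-fold higher (95% confidence interval 3.02 to 4.61). The other probe set, at 7.11, 7.42 and 7.25 at 48 hpi against 8.88, 9.19 and 9.12 in controls, changed by -1.80 ± 0.12 (SE, limma adjusted p = 5.8e-05). H2ac18 is a near-identical neighbour of H2ac19, and the array may not separate them. A probe set that carries both symbols was not above background, changed by -0.30 and was not called (limma adjusted p = 0.16).

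H2bc21, a canonical H2B gene of the same cluster (chromosome 3, 96221072 to 96223738), fell as well. Its brighter probe set read 7.78, 8.14 and 7.52 at 48 hpi, against 8.71, 8.73 and 9.30 in controls. The groups did not overlap, and the change was -1.10 ± 0.20 (SE, limma adjusted p = 0.0050). The dimmer one read 5.69, 5.82 and 5.32 at 48 hpi, against 6.38, 6.44 and 6.94 in controls, a change of -0.97 ± 0.18 (SE, limma adjusted p = 0.0054). Both calls were lost in the methods' t-test, which is not the study's array test (adjusted p = 0.067 for each), as was that of H3f3b (0.078). In both probe sets the third control pool was the highest.

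H1f2 (H1.2, chromosome 13, 23738807 to 23739531), the linker histone whose promoter is printed above, was lower in 1 of its 3 probe sets. That probe set read 8.73, 8.78 and 8.39 at 48 hpi, against 9.06, 9.10 and 8.92 in controls, a change of -0.39 ± 0.12 (SE, limma adjusted p = 0.045). The gap was narrow, and the call was lost under 10 of 19 other settings. The brightest probe set changed by -0.45 ± 0.17 with overlapping groups and was not called (limma adjusted p = 0.080), and the dimmest changed by 0.03.

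The only cluster gene called higher was dim. H1f4, the linker histone H1.4, read 3.39, 3.22 and 3.52 at 48 hpi, against 2.76, 2.71 and 2.54 in controls, a change of 0.70 ± 0.11 (SE, limma adjusted p = 0.0024). The groups stood apart but both lay below the background level, so the size of this change has no reliable scale.

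The other cluster genes were not called. H2aw, a canonical H2A gene on chromosome 11 whose probe sets were above background, changed by -0.02 and -0.35. H2bc18 changed by -0.21 and was barely above background in controls. The dim probe sets of H2bc22 (-0.23), H3c11 (0.32), H3c4 (0.15) and H3c7 (-0.18) were not above background in either group, which leaves no canonical H3 gene measured on its own.

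H1f2, H2ac19 and H2bc21 are the members that belong to a short list, drawn from general knowledge, of cluster genes with polyadenylated mRNAs in differentiated cells. All 5 lower calls among the cluster genes fell on the 7 probe sets of these 3 genes (median change -0.97, all 7 above background), and none on the 8 probe sets of the other 7 genes (median -0.10, 3 above background). The list was written with results of these data known, so the counts are a description. The S phase markers, a check on cells in replication, were higher for 8 of 8 genes, with a mean level per array of 9.10 to 9.50 at 48 hpi and 6.67 to 6.81 in controls. Of these, 7 were above background, and Tyms was not in either group (mean 3.67 at 48 hpi, 2.89 in controls).

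The 27 probe sets that carry several symbols were taken up after their values were seen. Of these 7 were higher (25.9%) and 4 lower (14.8%), against 14.5% and 13.9% of all probe sets. A probe set for 10 H2A genes of the chromosome 13 cluster read 12.43, 12.48 and 13.01 at 48 hpi, against 9.07, 9.33 and 9.63 in controls. The gap far exceeded the spread, with a change of 3.29 ± 0.19 (SE) and 9.80-fold (limma adjusted p = 2.8e-05). Within each array it exceeded the dimmer H2ac19 probe set by 5.32, 5.06 and 5.76 at 48 hpi and by 0.20, 0.14 and 0.52 in controls, so that the changes differed by 5.10. These probe sets were set side by side for their opposite changes, and the difference is a description.

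H4, for which no probe set carries a single symbol, is read by 5 probe sets that each carry 13 symbols. One of them read 7.43, 7.52 and 8.16 at 48 hpi, against 4.56, 5.10 and 5.56 in controls, a change of 2.63 ± 0.27 (SE, limma adjusted p = 0.00039). A second rose by 1.29 ± 0.19 (limma adjusted p = 0.0016), and the other 3 were dim and not called. In these called H4 and H2A probe sets the third 48 hpi pool was the highest.

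Of 5 shared H3 probe sets, 1 was higher, 2 were lower and 2 were not called. One for 12 H3 genes read 7.71, 7.95 and 8.41 at 48 hpi, against 5.95, 5.86 and 6.05 in controls, a change of 2.07 ± 0.17 (SE, limma adjusted p = 0.00014). Another, for 8 of the H3 genes, read 5.46, 5.59 and 5.17 at 48 hpi, against 6.48, 6.41 and 7.27 in controls, a change of -1.31 ± 0.23 (SE, limma adjusted p = 0.0038), and a second for the same 8 genes changed by -1.31 ± 0.34 (limma adjusted p = 0.022). The first of these falls lost its call under 1 of 17 other settings and the second under 4. The 12-gene probe set rose and the 8-gene ones fell, although every gene of the shorter list is also on the longer one. A further probe set for the same 12 genes was not above background (0.19), and one for H3c2 and H3c10, above background, was at 0.04, and neither was called. Within each array the difference between the 12-gene and the brighter 8-gene probe set was 2.26, 2.36 and 3.24 at 48 hpi and -0.53, -0.55 and -1.22 in controls, so that their changes differed by 3.39, also a description of probe sets chosen for their difference. Which genes or transcript ends each probe set reads was not tested.

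H2B did not rise where it was well measured. A probe set for H2bc4, H2bc6 and H2bc8 read 10.74, 10.87 and 10.50 at 48 hpi, against 11.01, 11.09 and 11.44 in controls, a change of -0.48 ± 0.14 (SE, limma adjusted p = 0.039), a call that was lost under 9 of 17 other settings. One for 11 symbols, most of them H2B genes, changed by -0.27 ± 0.12 and was not called (limma adjusted p = 0.15), and the remaining 3 were dim and not called. A probe set for the H2bu pair was higher by 0.72 ± 0.20 (limma adjusted p = 0.031) with overlapping groups, and this call was lost under 6 of 17. H2A.Z probe sets that also carry Gm8203 rose by 1.38 and 1.56, close to the H2az1 values above. A probe set for H2aw and Trim17 was above background, changed by -0.11 and was not called. Another, for 11 H2al1 genes, was not above background and not called (-0.20).

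**Figure D3:**
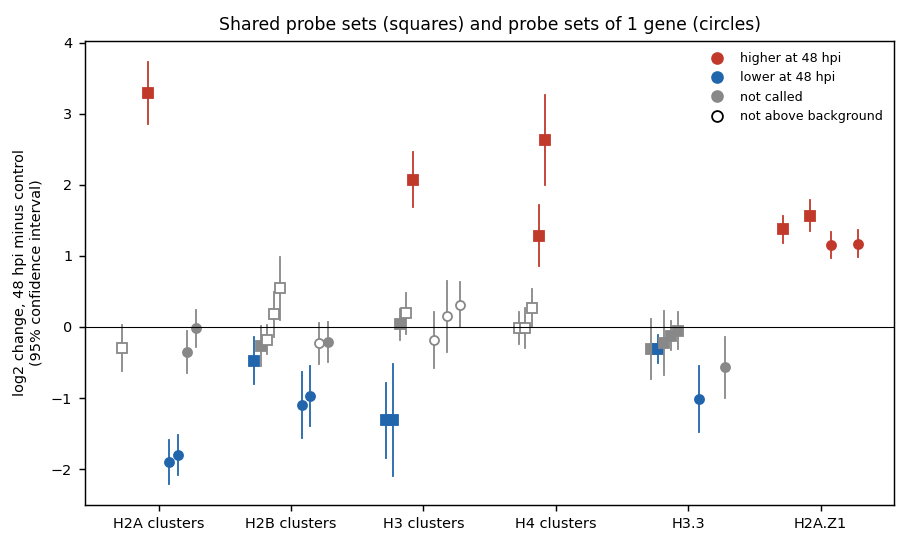
Change (48 hpi minus control, log2, y axis) with 95% confidence interval of probe sets that carry several symbols (squares) beside probe sets of 1 gene (circles), by histone type. Colours as in the key: red higher at 48 hpi, blue lower, grey not called, open not above background. Shared H2A, H3 and H4 probe sets reach 3.29, 2.07 and 2.63, while the probe sets of single H2A and H2B cluster genes lie below 0.

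Of the genes known from testis or oocyte (H1f6, H1f7, H1f8, H2al2a, H2bfm and H2bl1), none of the 7 probe sets was above background or called, by limma (0 at an unadjusted p below 0.05) or by the methods' t-test (0 unadjusted). Their changes ran from -0.14 to 0.11. The 3 probe sets of H2al3 and H2ap were also not above background and not called. One for H2ap changed by -0.27 with groups that did not overlap (limma adjusted p = 0.087), and it was the 1 of these 3 with an unadjusted p below 0.05 in either test.

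Genes that make, carry and load histones were read from lists drawn from general knowledge, with 1 probe set, the brightest, for each gene. Over all 18193 genes read this way, 18.4% were higher and 16.1% lower. Those shares include dim genes, whereas every gene of these lists was above background. In the fit of the 24086 probe sets above background alone, 6493 were higher and 5738 lower. Of 20 genes of histone mRNA end processing, 15 were higher and none lower, by limma or by the methods' t-test, with a median change of 0.74. Slbp, whose protein binds the stem-loop, rose by 1.46 ± 0.08 (SE, limma adjusted p = 2.7e-05). Casp8ap2, the histone locus body protein FLASH, rose by 1.15, Cpsf2 by 1.15, the exonuclease gene Eri1, which trims the stem-loop, by 1.26, and Ncbp1 of the cap-binding complex by 1.32. Mybl2, also called higher in this list (3.14), encodes a cell-cycle transcription factor and processes no histone mRNA. Without it 14 of 19 were higher and the median was 0.70. Npat, also called higher, stands both in this list and among the genes of cluster transcription below, so the counts of those lists overlap. Wdr33, Cpsf1, Zfp473, Lsm10 and Ncbp2 were not called.

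Of 15 genes listed for replication-coupled histone supply and deposition, 14 were higher and none lower, with a median change of 1.01. Not all of them encode chaperones, and Mcm2 is also 1 of the 8 S phase markers. Asf1b rose by 2.71 ± 0.13 (SE, limma adjusted p = 1.2e-05). Chaf1b of CAF-1 rose by 2.76, Mcm2, which holds H3-H4 at the helicase, by 2.55, Hat1, which acetylates new H4, by 1.85, and Nasp and Mms22l by 1.84 each. Rbbp7 was at -0.05 and not called. Of 12 genes that act in transcription of the clusters, 10 were higher and none lower (median 0.67), among them Ccne2 (2.41), Ccne1 (2.18), Cdk2 (1.09) and its substrate Npat (0.95), the coactivator of the histone locus, and Nfya (0.81), which encodes a subunit of the complex that binds CCAAT. Hinfp, an H4 gene factor, was at -0.11 and Nfyb at 0.12, and neither was called.

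Chaperones and remodellers of the replacement variants gave fewer calls. Of 17 genes, 5 were higher (29.4%) and 1 lower (5.88%), with a median change of 0.20. The share of higher calls was near that of all probe sets above background. Anp32e, the chaperone that removes H2A.Z, rose by 1.59 ± 0.11 (SE, limma adjusted p = 7.6e-05). Dek rose by 1.02, Actl6a by 0.99, Hira, which deposits H3.3, by 0.58, and Yeats4 by 0.37, and the remodeller gene Chd2 fell by 0.57 (limma adjusted p = 0.0025). The H3.3 chaperone genes Daxx (0.18) and Atrx (-0.26), and Srcap (0.23), Vps72 (0.20) and Ep400 (-0.02), which load H2A.Z, were not called.

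**Figure D4:**
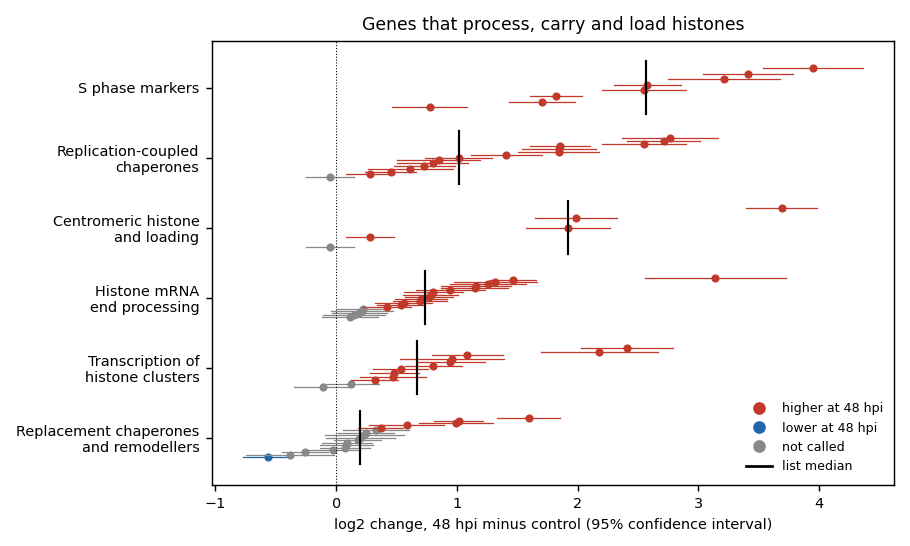
Change (48 hpi minus control, log2, x axis) with 95% confidence interval of the brightest probe set of each gene in 6 lists, in rows. Red was higher at 48 hpi, blue lower, grey not called, and the black bar is the median of the list. The S phase and replication-coupled lists lie almost wholly above 0, and the replacement list has a median of 0.20.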

How the data were processed

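Tracheal epithelium was measured on 6 arrays, 3 of 48 hpi and 3 of control pools, grouped by their sample titles. The authors deposited log2 values from robust multi-chip analysis (RMA), which corrects background, quantile-normalizes the arrays and summarizes the probes of each probe set. The submitters' notes name Affymetrix Expression Console 1.1 and Partek 6.5. RNA was amplified with the MessageAmp Premier kit. The quantile step assumes like distributions on all arrays, and arrays have no read depth, so that precision is limited by their number. Nothing says whether the pools were handled on separate days.

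The 64 control probe sets were left out. limma 3.58.1 (lmFit and eBayes, R 4.3.3) was fitted to all 45037 other probe sets, two-sided, with Benjamini-Hochberg adjustment over all of them and calls at an adjusted p below 0.05. In a simulation with 45037 probe sets, changes of 1, 2 and 3 on the log2 scale were recovered in 74%, 96% and 100% of cases, and changes of 0.5 in 10%. Only 144 probe sets were called in that simulation, against 12779 in the data. Its Benjamini-Hochberg cutoff was therefore stricter, and these shares are not the recovery rates of the real fit. The contrast of H2az1 with H2az2 within arrays used an exact permutation test. The study's two-way analysis of variance needs mesenchymal arrays, which were not used here. The methods' t-test is the study's general unpaired Student's t-test, here with Benjamini-Hochberg adjustment unless called unadjusted, and does not repeat that analysis. Plots used matplotlib 3.10.9 (Python 3.11.15).

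Gene names come from the array annotation (34958 probe sets with 1 symbol, 932 with several, 9211 with none). Cluster genes were to be told by symbols beginning with Hist, but the annotation uses newer symbols, so older synonyms in RefSeq (GRCm38.p6) were used for all 36 members. All members may be named. Values of every pool are given for called cluster probe sets whose groups do not overlap and for the brightest probe set of each replacement variant, and list genes are named in order of p, up to 6 a list. The members and lists were chosen with earlier results of these data known. Alternatives covered the choice and filter of probe sets, the prior, the test, the scaling, a stricter threshold, array weights, a block for the pool number and leaving out each array.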

Additional observations from a re-analysis of the deposited data

How the results depend on the processing

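Of 23 called histone and shared probe sets, each refitted under up to 20 settings, 13 kept direction and call under all of them (both H2ac19 and both H2az1 probe sets, H2ax, H1f10, H1f4, both shared H2A.Z probe sets, and the called shared H2A, H4 and 12-gene H3 probe sets), and 21 never changed direction. H1f4, dim in both groups, was refitted under 19 settings, because the fit of probe sets above background left it out. H2aj reversed with the mean over its probe sets (0.0347) and with equal hybridization controls (0.0448), as did the shared H3.3 probe set in the second (0.0368). The fall of H3f3b and of both H2bc21 probe sets lost the call only in the methods' t-test. Among shared probe sets, the H2B fall lost it under 9 of 17 settings, the H2bu rise under 6, the 8-gene H3 falls under 4 and 1, and the H3.3 fall lost or turned it under 10. Without the third 48 hpi array, which stood slightly apart, 5 histone probe sets were higher and 6 lower.

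The 7 lower histone probe sets became 4 with the mean of probe sets per gene and 3 in the methods' t-test. The 1 higher cluster probe set became 0 when dim probe sets were removed first and 2 with equal hybridization controls or array weights. The 5 lower cluster probe sets became 2 with the brightest or the mean value per gene or the methods' t-test and 3 without x and s probe sets, in part because fewer probe sets are then counted. The 2 lower replacement probe sets became 1 in the methods' t-test, with a common median, with equal hybridization controls and at an adjusted p below 0.01, and ranged from 1 to 2 with single arrays left out: 1 without any array but the third of 48 hpi. Of the replacement chaperones, the 5 higher became 3 at an adjusted p below 0.01. The 1 lower became 2 with the brightest probe set per gene, single-symbol probe sets, probe sets above background, a mean-variance trend or the methods' t-test, 3 with repeated quantile normalization or array weights, and 0 with equal hybridization controls. Without x and s probe sets the 4 higher centromeric genes became 2 and the 8 S phase markers 4, since fewer genes remained. The cause of the other shifts was not tested.

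Equal hybridization controls raised the share of higher calls among all called probe sets to 84.5% and a common median to 64.1%, against 51.0% in the deposited scaling. With the replicate number as a block, 5 histone probe sets were higher and 9 lower, and the lower replacement chaperones became 2. Under the block no other count of histone classes or of the histone gene lists moved by over 1.5 times. In the methods' t-test the lower ciliated markers became 2, against 8 by limma, and the lower secretory markers 0, against 5. Deviations of same-numbered pools from their group means correlated at 0.20, 0.08 and 0.19, and every 48 hpi pool correlated best with the control of its own number, a hint from the data and not from the design. The values give no probe-level signal, so dim probe sets limit what can be said of 15 of the 36 members.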

Other observations

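Histone genes outside the symbol rule included the centromeric and macroH2A variants. Cenpa, the centromeric H3 variant, read 9.58, 9.40 and 9.77 in the 48 hpi pools, against 5.75, 6.06 and 5.87 in control pools, in its brightest probe set. The groups stood far apart, with a change of 3.69 ± 0.13 (SE, limma adjusted p = 4.1e-06). A dimmer probe set of Cenpa rose by only 0.85 ± 0.24 (SE, limma adjusted p = 0.033). The dimmest was not above background and not called (0.04). Among 5 genes for this variant and its loading, 4 were higher, with Mis18a at 1.99, Oip5 at 1.92 and Rbbp4 at 0.28, and Rbbp7 was not called (-0.05). With any single array left out 3 were higher, since Rbbp4 (limma adjusted p = 0.042) lost its call each time. Rbbp4 and Rbbp7 are also counted in the replication-coupled list. Macroh2a1, which encodes a large H2A variant, changed by 0.13 and Macroh2a2 by 0.01, and neither was called. Hils1, a spermatid linker histone, was not above background.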
